A study of Mus musculus with 28 samples.

Results

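The genes described here are the enzymes that make cholesterol and fatty acids and the proteins that regulate them, 30 genes of the 23712 gene rows in the count tables. They were chosen by function, not by a threshold on any measured value. The sterol branch holds 17 enzymes (Hmgcs1, Mvk, Pmvk, Mvd, Idi1, Fdps, Fdft1, Sqle, Lss, Cyp51, Dhcr7, Sc5d, Nsdhl, Hsd17b7, Ebp, Msmo1 and Tm7sf2). The fatty acid branch holds 8 enzymes (Acly, Acaca, Fasn, Scd1, Scd2, Elovl6, Fads1 and Fads2). The remaining 5 (Srebf1, Srebf2, Scap, Insig1 and Stard4) are regulators or sterol carriers. All 30 were found in the tables, and all 30 passed the filter on low counts.

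RNA was sequenced from C57BL/6 mouse cells in 28 libraries of 9 groups. Mouse embryonic fibroblasts (MEF, 2 libraries), from embryos of 13.5 days post coitum, were the starting cells, and hepatocytes from 10-week-old adult livers (Hep, 2 libraries) were the reference. Fibroblasts infected with pGCDNsam retroviruses carrying Hnf4a and 1 Foxa factor were sampled at 48 h (48h_Foxa1, 48h_Foxa2 and 48h_Foxa3, 2 libraries each) and as the induced hepatocyte-like cells derived from them, called iHep (iHep_Foxa1, 6 libraries, iHep_Foxa2, 4 libraries, and iHep_Foxa3, 6 libraries). A further group, 48h_Foxa3del2 (2 libraries), received Hnf4a with a mutant Foxa3 named del2. Its titles say 48 h and its stage field says iHep, and it was grouped by title. All infected groups carry Hnf4a, so no comparison of an infected group with MEF or Hep separates the Foxa factor from infection or from Hnf4a. No library of fibroblasts with an empty virus was analysed here, and the labels do not give the age of the iHep cultures or say whether replicates came from separate cultures. The p-values therefore measure the spread between these libraries, which may be technical.

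Cholesterol is built from acetyl-CoA through the mevalonate pathway to squalene, which is closed into lanosterol and then trimmed to cholesterol. Fatty acids are built from the same acetyl-CoA, which Acly releases from citrate, Acaca carboxylates and Fasn assembles into palmitate, and Elovl6, Scd1, Scd2, Fads1 and Fads2 then elongate or desaturate the chain. Both branches are switched on by the SREBP transcription factors: SREBP2, from Srebf2, acts mostly on the sterol genes and SREBP1, from Srebf1, mostly on the fatty acid genes. Scap carries the SREBP precursors out of the endoplasmic reticulum when sterols are low, and Insig1, itself an SREBP target, holds them back when sterols are high. In the liver this system supplies lipoproteins and responds to feeding.

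Promoter sequence from RefSeq (build GRCm38.p6; 250 bases before to 50 after each gene's start) was found for 23 of the 30 genes and is shown because both branches answer to the same factor and these letters are where it and its partner are known to bind. The sterol regulatory element, searched as TCACNCCAC on both strands, was found in 1 of the 23 promoters, that of Hmgcs1, 137 bases before the start, against 1.44% of all 27025 genes with a promoter in the table. The CCAAT box, searched as CCAAT on both strands, was found in 14 of 14 sterol promoters, 3 of 4 regulator promoters and 2 of 5 fatty acid promoters, against 41.1% of all genes. The Hmgcs1 window is chr13:119690184-119690252 on the plus strand. The Idi1 window is chr13:8885562-8885605 (plus), the Cyp51 window chr5:4104698-4104756 (minus), the Sc5d window chr9:42264301-42264354 (minus) and the Fasn window chr11:120824572-120824636 (minus). Capitals mark the element in Hmgcs1 and the CCAAT box, read on either strand, in the others. In Fasn, 2 matches on opposite strands share letters.
Hmgcs1: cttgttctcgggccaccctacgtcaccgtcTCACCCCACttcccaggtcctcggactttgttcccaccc
Idi1: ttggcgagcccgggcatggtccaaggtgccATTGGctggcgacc
Cyp51: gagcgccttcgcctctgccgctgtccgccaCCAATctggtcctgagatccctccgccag
Sc5d: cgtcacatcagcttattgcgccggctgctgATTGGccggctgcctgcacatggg
Fasn: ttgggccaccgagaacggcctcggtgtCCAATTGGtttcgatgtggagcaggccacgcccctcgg
A match describes letters only, and none of these libraries measures binding.

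Levels are given as CPM, the deposited estimated counts scaled to a common library size with TMM factors and summed over the transcripts of a gene. Library totals ran from 14592820 to 51743266 counts. In a fit of all 28 libraries, 16499 genes were tested, and a gene was called where the adjusted p fell below 0.05. Summed over 6 hepatocyte markers, Hep held 188191 to 209029 CPM, MEF 12.02 to 14.84 and the iHep libraries 2137 to 29551. Apoa1 had the highest mean of the 6 in each iHep group. It averaged 11980, 3563 and 16101 CPM in iHep_Foxa1, iHep_Foxa2 and iHep_Foxa3 and 6414 in Hep. Alb averaged 491, 237 and 54.9 CPM in the iHep groups and 140035 in Hep. Trf, Serpina1a and Ttr were also lower in each iHep group than in Hep. Cps1, the first urea cycle enzyme, reached 3.44 CPM at most in iHep and was at 7061 CPM or more in Hep. The fibroblast markers (6 genes) summed to 36913 to 38320 CPM in MEF and to 24.6 to 352 in iHep. The adipocyte genes Adipoq, Lep and Plin1 were at 0.103 CPM or less in every iHep library, while the list of 7 adipocyte markers, led by Adipor2, summed to 176 to 476 CPM there and to 1005 to 1071 in Hep. Pparg, another gene of that list, averaged 7.48 CPM in MEF and 8.91 in Hep. Its means were higher in iHep cells, at 66.2 CPM with Foxa1, 17.7 with Foxa2 and 96.0 with Foxa3. Fabp4, also on the list, had a median of 51.3 CPM in MEF and 13.3 in Hep. Its iHep medians were 5.57, 11.1 and 30.6 CPM in the same order, and 1 iHep_Foxa3 library reached 110. In bulk RNA, fewer cells of a type and less RNA per cell cannot be told apart.

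A split of the libraries that no label names crosses several comparisons and is given here first. By Rn7sk, a small nuclear RNA, 14 libraries lay above 10 CPM (17.2 to 72.5) and 14 below it (0 to 5.98). The high set held every 48h_Foxa1, 48h_Foxa2 and 48h_Foxa3 library, iHep_Foxa1 replicates 4 to 6 and iHep_Foxa3 replicates 2 to 6. The low set held MEF, Hep, iHep_Foxa2, 48h_Foxa3del2, iHep_Foxa1 replicates 1 to 3 and iHep_Foxa3 replicate 1. Rps29, a ribosomal protein gene, ranged from 249 to 921 CPM over the high libraries, was at 372 and 373 in 48h_Foxa3del2 and ranged from 23.8 to 60.5 over the other low ones. Between groups that lie in different sets, the set and the group cannot be told apart, and values within 1 set are therefore printed beside the pooled ones.

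Adult hepatocytes held more of most sterol enzymes than fibroblasts. In Hep against MEF, 12 of 17 sterol enzymes rose and none fell, with a median log2 fold change of 1.86 over the 17 and -0.28 over all genes tested. In the fatty acid branch 5 of 8 rose and 1 fell (median 1.45), and among the regulators 3 of 5 rose and 1 fell (median 1.75). Of all genes tested, 24.3% were called higher and 32.6% lower. The 5 uncalled sterol enzymes (Mvd, Sqle, Lss, Cyp51 and Nsdhl) had log2 fold changes of 0.39 to 1.55.

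**Figure D1:**
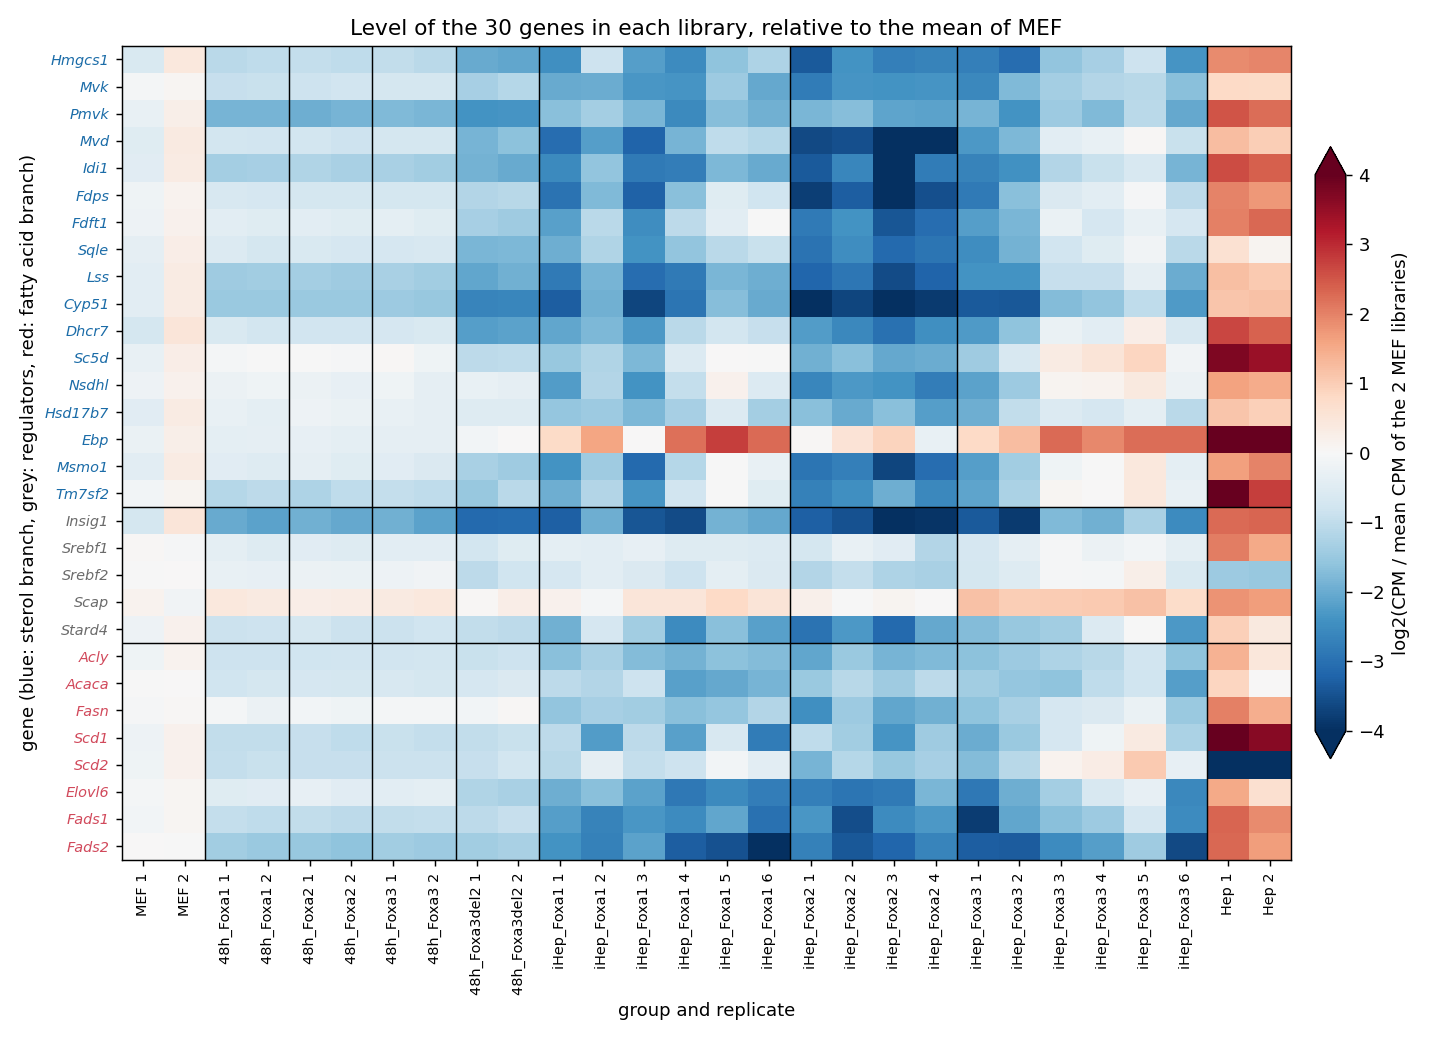
Level of each of the 30 genes (rows, by branch) in each of the 28 libraries (columns, by group) as log2 of CPM over the mean of the 2 MEF libraries; red is higher and blue lower, and the scale stops at 4 either way. The Hep columns are at or above the MEF mean except for Srebf2 and Scd2, and most iHep columns are below it except for Ebp and Scap.

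Ebp, Sc5d and Tm7sf2 had the largest differences of the sterol branch. Ebp, the sterol isomerase, was at 518 and 467 CPM in the Hep libraries and at 20.3 and 28.7 in MEF, a log2 fold change of 4.33 ± 0.67 (SE; edgeR adjusted p = 1.12e-05). Sc5d, the sterol desaturase of the final steps, was at 1372 and 1120 CPM in Hep and 82.8 and 122.8 in MEF (3.60 ± 0.60; edgeR adjusted p = 2.88e-05). Tm7sf2, a sterol reductase, was at 393 and 156 CPM in Hep and 21.3 and 24.7 in MEF (3.58 ± 0.71; edgeR adjusted p = 0.000179). Both Hep libraries lay above both MEF libraries for each of these, although the Hep libraries differed from each other for Tm7sf2. Dhcr7, which makes the last reduction to cholesterol, was at 408 and 330 CPM in Hep and 39.1 and 89.6 in MEF (2.52 ± 0.60; edgeR adjusted p = 0.00119). Of the steps before squalene, Idi1, the isomerase of the isoprenoid unit, had a log2 fold change of 2.51 ± 0.59. Pmvk, the phosphomevalonate kinase, had 2.39 ± 0.34, Hmgcs1, the synthase that opens the pathway, 1.92 ± 0.61, and Mvk, the mevalonate kinase, 0.80 ± 0.33. Ebp, Sc5d and Tm7sf2 were named as the largest of the branch, so all of these lay below them by selection. The uncalled later enzymes Sqle, Lss, Cyp51 and Nsdhl lay below Idi1 and Pmvk. The calls of Mvk, Fdps and Msmo1 were each lost without any one of the 4 libraries (log2 fold changes of 0.78 to 0.96, 1.75 to 2.12 and 1.58 to 2.33), and that of Hsd17b7 without any but MEF replicate 2 (0.77 to 1.12). Those of Hmgcs1 and Fdft1 were lost without MEF replicate 1 (1.57 and 2.07; edgeR adjusted p = 0.103 and 0.0558).

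The regulators did not move as 1 group. Insig1 was at 3808 and 3969 CPM in Hep and at 480 and 1096 in MEF (log2 fold change 2.30 ± 0.69; edgeR adjusted p = 0.00665). Without MEF replicate 1 that call was lost (1.90; edgeR adjusted p = 0.083). Srebf1 was at 442 and 302 CPM in Hep and 110 and 103 in MEF (1.81 ± 0.23; edgeR adjusted p = 1.01e-06), and Scap at 194 and 176 against 60.3 and 50.1 (1.75 ± 0.21; edgeR adjusted p = 2.95e-07). Srebf2 went the other way, with 88.1 and 83.6 CPM in Hep and 238 and 244 in MEF (-1.49 ± 0.24; edgeR adjusted p = 1.68e-05). The 2 SREBP genes thus stood in opposite order in the 2 cell types, and no library of either group overlapped the other for either gene. These are transcript levels, and SREBP activity, which depends on cleavage of the protein, was not measured.

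Within the fatty acid branch the 2 stearoyl-CoA desaturases, which put the first double bond into palmitate and stearate, exchanged places. Scd1 was at 18936 and 5651 CPM in Hep and 397 and 519 in MEF (log2 fold change 4.75 ± 0.79; edgeR adjusted p = 2.75e-05). Scd2 was at 11.8 and 6.48 CPM in Hep and 1807 and 2284 in MEF (-7.81 ± 0.74; edgeR adjusted p = 1.3e-08). On the deposited FPKM scale, which divides by transcript length, Scd1 was 99.9% of the sum of both in each Hep library and 19.8% to 20.4% in MEF. The sum itself was 643 and 2040 FPKM in the Hep libraries and 389 and 502 in MEF.

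In the reprogrammed cells Scd2 remained the more abundant of the pair. Scd1 made up 4.62% to 20.8% of the summed FPKM in the iHep_Foxa1 libraries. Its share was 12.4% to 30.9% in iHep_Foxa2, 11.6% to 17.5% in iHep_Foxa3 and 18.4% to 20.1% over the 4 groups sampled at 48 h. No iHep library came near the Hep share. Scd2 had the highest mean FPKM of the 30 genes in each of the 8 groups of fibroblast origin and the lowest in Hep (0.885 FPKM), where Scd1 was highest (1341 FPKM).

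**Figure D2:**
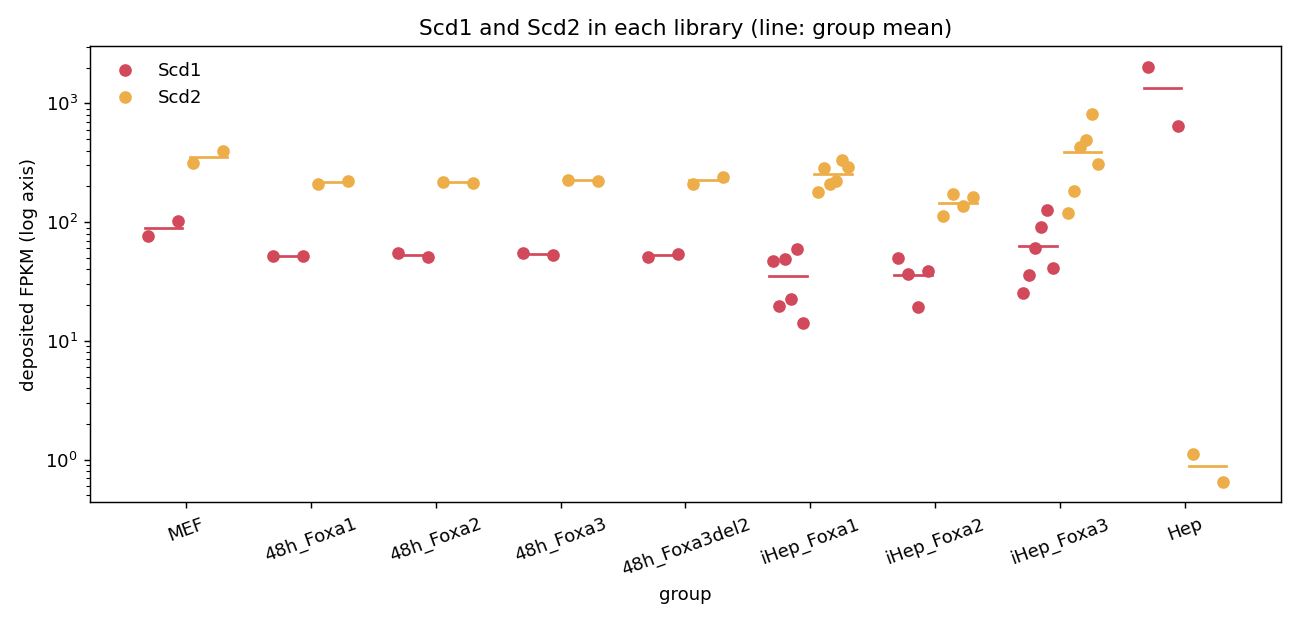
Deposited FPKM of Scd1 and Scd2 (log axis) in each library by group, with a line at each group mean. Scd2 lies above Scd1 in all 26 libraries outside Hep, and in Hep Scd1 lies above Scd2, which is at 0.885 FPKM on average.

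The desaturases of polyunsaturated chains rose in Hep as well. Fads1 was at 1548 and 1147 CPM in Hep and 291 and 330 in MEF (2.12 ± 0.58; edgeR adjusted p = 0.00345). Fads2 was at 842 and 538 CPM in Hep and 173 and 168 in MEF (2.02 ± 0.62; edgeR adjusted p = 0.00817), a call lost without Hep replicate 1 (1.66; edgeR adjusted p = 0.0601). The 2 Hep libraries differed in this branch: all 8 fatty acid genes were higher in replicate 1, by a median of 1.80-fold and up to 3.35-fold for Scd1, while the sterol genes had a median ratio of 1.13. The 2 MEF libraries differed in the other branch. All 17 sterol genes were higher in MEF replicate 2, by a median of 1.54-fold and up to 2.29-fold for Dhcr7, against 1.12-fold in the fatty acid branch. The 7 macrophage markers summed to 16.95 CPM in MEF replicate 1 and 233 in replicate 2, and the 5 immediate early and stress genes to 2316 and 616. Whether these bear on the sterol genes was not tested.

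The iHep cells lay below fibroblasts, away from the hepatocyte level. In iHep_Foxa2 against MEF, 16 of 17 sterol genes fell and none rose (median -2.75), 7 of 8 fatty acid genes fell (median -1.86) and 4 of 5 regulators fell. Of all genes tested, 15.3% were called higher and 15.5% lower in that comparison, with a median of 0.06. In iHep_Foxa1, 11 sterol genes fell and 1 rose (median -1.43) and 7 fatty acid genes fell (median -1.56), where 20% of all genes were called higher and 19.9% lower. In iHep_Foxa3, 7 sterol genes fell and 1 rose (median -0.84) and 6 fatty acid genes fell (median -1.30), where 22.9% of all genes were called higher and 23.7% lower. Over the 30 genes, 22 were called in iHep_Foxa1, 27 in iHep_Foxa2 and 16 in iHep_Foxa3. MEF replicate 2 weighed on these counts: without it fewer of the 30 were called in each group. That fit leaves 1 MEF library. At their lowest, fits with 1 library left out also called fewer of all genes in each comparison, so the drop is not particular to the 30. The 3 comparisons share the 2 MEF libraries.

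**Figure D3:**
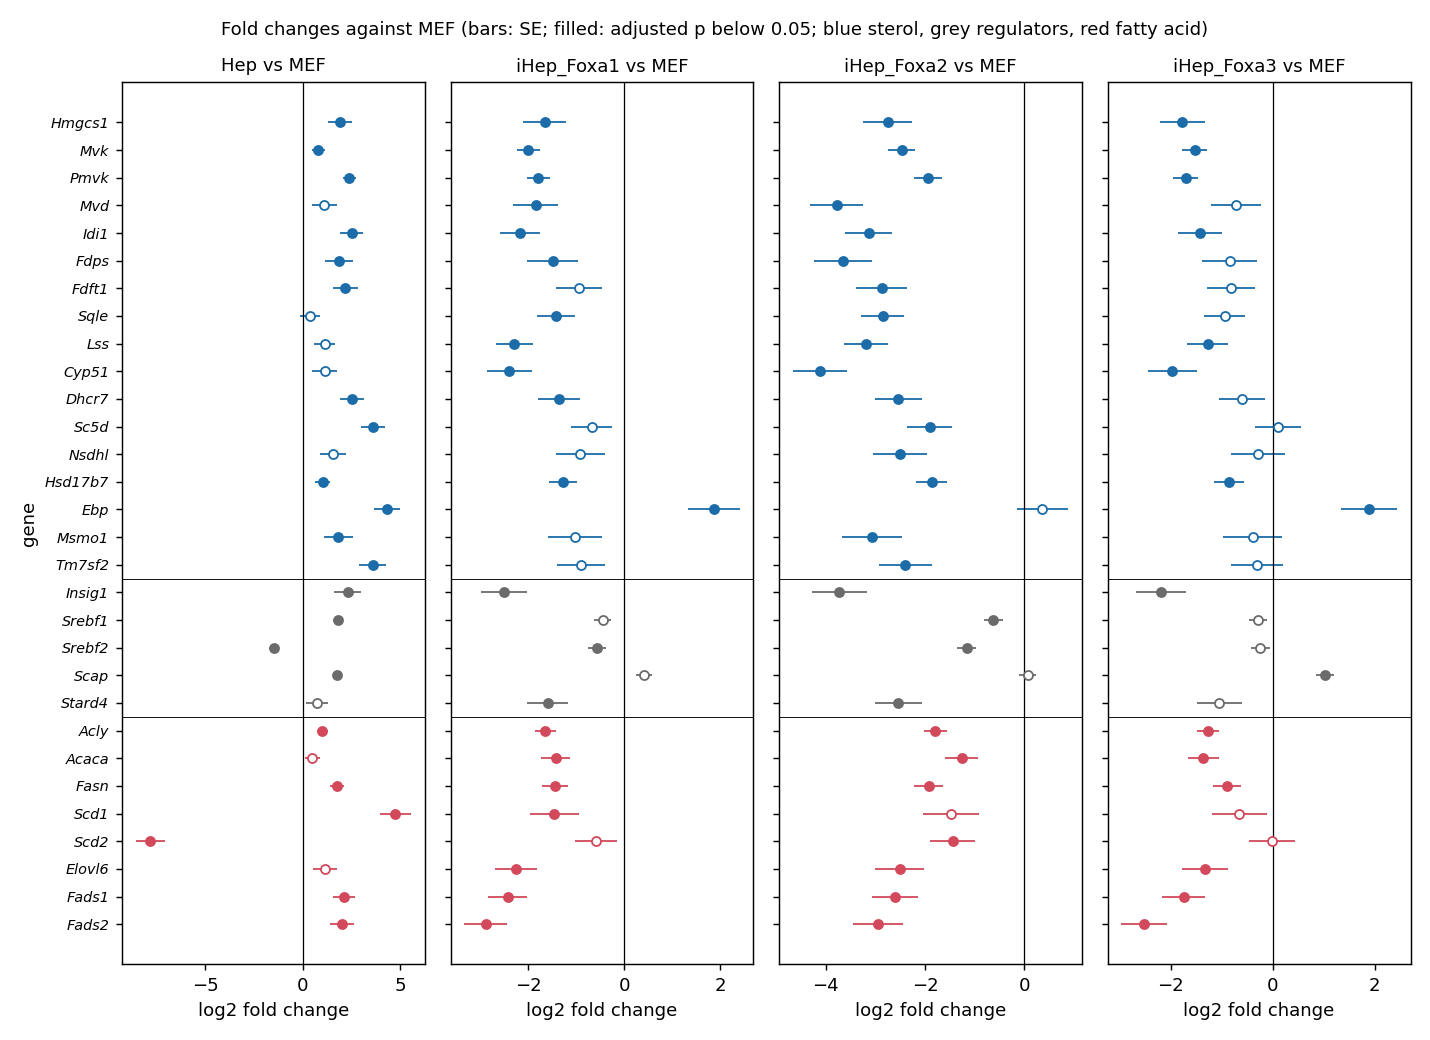
Log2 fold change of each gene (rows) in Hep and in each iHep group against MEF, with SE bars; filled points have an adjusted p below 0.05. Points lie to the right of 0 in Hep except Srebf2 and Scd2, and to the left in iHep except Ebp, Scap and, in iHep_Foxa3, Sc5d; the panels have different x ranges.

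Of the sterol enzymes, Cyp51, which demethylates lanosterol, fell furthest in all 3 iHep groups. Its level was 596 and 985 CPM in MEF and 37.8, 62.6, 27.0 and 55.1 CPM in iHep_Foxa2, a log2 fold change of -4.11 ± 0.55 (edgeR adjusted p = 8.14e-06). In iHep_Foxa1 Cyp51 ranged from 62.4 to 244 CPM with a median of 151 (-2.40 ± 0.48; edgeR adjusted p = 0.00039), and in iHep_Foxa3 from 75.5 to 392 with a median of 201 (-1.97 ± 0.48; edgeR adjusted p = 0.00199). No iHep library reached the lower MEF library. The iHep_Foxa3 call was lost without MEF replicate 2 (-1.53; edgeR adjusted p = 0.0746).

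Steps that lead from mevalonate to the isoprenoid units fell beside it. Mvd, the decarboxylase, was at 50.3 and 90.4 CPM in MEF and at 5.77, 6.12, 4.41 and 4.21 in iHep_Foxa2 (-3.78 ± 0.54; edgeR adjusted p = 1.7e-05). Fdps, which joins the units into farnesyl diphosphate, was at 185 and 232 CPM in MEF and at 15.4, 21.1, 11.5 and 18.4 in iHep_Foxa2 (-3.65 ± 0.59; edgeR adjusted p = 7.46e-05). Idi1 was at 344 and 596 CPM in MEF and ranged from 65.7 to 157 in iHep_Foxa1, with a median of 98.9 (-2.18 ± 0.42; edgeR adjusted p = 0.000284). Lss, which closes the sterol ring, was at 121 and 204 CPM in MEF, at 17.96, 22.00, 13.70 and 17.68 in iHep_Foxa2 and between 19.8 and 46.3 in iHep_Foxa1, with a median of 32.4. Mvk was at 56.2 and 62.4 CPM in MEF, at 8.54, 11.5, 11.2 and 11.5 in iHep_Foxa2 and between 11.6 and 21.7 in iHep_Foxa1, with a median of 14.4. None of the libraries named for these 5 genes overlapped MEF.

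The opening steps fell in all 3 groups as well. Hmgcs1 was at 746 and 1513 CPM in MEF and between 136 and 638 in iHep_Foxa3, with a median of 299 (-1.77 ± 0.44; edgeR adjusted p = 0.0026). Pmvk was at 77.5 and 112 CPM in MEF and between 18.2 and 45.2 in iHep_Foxa3, with a median of 26.8 (-1.70 ± 0.25; edgeR adjusted p = 1.01e-05). Their log2 fold changes over the 3 groups ran from -2.75 to -1.67 and from -1.94 to -1.70, and no iHep library overlapped MEF for either. Without MEF replicate 2 the call of Hmgcs1 was lost in iHep_Foxa1 (-1.05) and iHep_Foxa3 (-1.13), and those of Idi1 and Lss in iHep_Foxa3 (-0.94 and -0.82).

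Ebp was the exception in the branch. It was at 20.3 and 28.7 CPM in MEF, between 24.98 and 165 (median 92.7) in iHep_Foxa1 and between 42.5 and 118 (median 104) in iHep_Foxa3, and it was called higher in both (1.86 ± 0.54, edgeR adjusted p = 0.0089; 1.89 ± 0.54, edgeR adjusted p = 0.00698). In iHep_Foxa2 it was at 25.2, 35.8, 45.6 and 20.1 CPM and was not called (0.37 ± 0.52). The call in iHep_Foxa1 was lost without either MEF library (edgeR adjusted p = 0.121 and 0.0528) and that in iHep_Foxa3 without MEF replicate 1 (edgeR adjusted p = 0.0999). Within the low set alone Ebp was not called in either (0.88 and 0.76; edgeR adjusted p = 0.147 and 0.341).

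The regulators again split. Insig1 had 480 and 1096 CPM in MEF, 82.6, 69.8, 33.9 and 51.5 in iHep_Foxa2 (-3.73 ± 0.56; edgeR adjusted p = 3.14e-05), 66.6 to 213 in iHep_Foxa1 (median 136; -2.51 ± 0.49; edgeR adjusted p = 0.000312) and 55.8 to 320 in iHep_Foxa3 (median 174; -2.19 ± 0.49; edgeR adjusted p = 0.000931). Without MEF replicate 2 the call in iHep_Foxa3 was lost (-1.44; edgeR adjusted p = 0.0923). Its level lay below both MEF libraries in all 16 iHep libraries. Stard4, which carries sterol between membranes, was at 86.3 and 112 CPM in MEF, 17.4 to 61.6 (median 28.6) in iHep_Foxa1 and 12.9, 20.1, 11.6 and 23.7 in iHep_Foxa2. It fell in iHep_Foxa1 and iHep_Foxa2 (-1.60 ± 0.43 and -2.54 ± 0.47; the first was lost without MEF replicate 2, at -1.40) and was not called in iHep_Foxa3 (-1.04 ± 0.43; edgeR adjusted p = 0.053). Srebf2 fell in iHep_Foxa2, from 238 and 244 CPM in MEF to 107, 125, 102 and 97.9 (-1.16 ± 0.20; edgeR adjusted p = 0.000117). In iHep_Foxa1 it was at 136 to 186 CPM (-0.57 ± 0.19; edgeR adjusted p = 0.0185), a call lost without either MEF library (-0.59 and -0.54), and in iHep_Foxa3 at 149 to 285 CPM and not called. Srebf1 was at 110 and 103 CPM in MEF and fell in iHep_Foxa2, to between 47.1 and 86.0 (-0.62 ± 0.19; edgeR adjusted p = 0.0174), a call lost without MEF replicate 1 (edgeR adjusted p = 0.078). It was at 73.0 to 84.3 CPM in iHep_Foxa1 and 66.5 to 103 in iHep_Foxa3, without a call. Scap rose in iHep_Foxa3, from 60.3 and 50.1 CPM to between 91.9 and 126 (1.03 ± 0.17; edgeR adjusted p = 5.93e-05), and it was lower in both other iHep groups than in iHep_Foxa3 (log2 differences of -0.61 ± 0.12 and -0.95 ± 0.13; edgeR adjusted p = 0.0039 and 0.000136).

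In the fatty acid branch Fads2 fell furthest and Fads1 next in each iHep group. Fads2 was at 173 and 168 CPM in MEF, 26.2, 16.2, 18.7 and 27.0 in iHep_Foxa2 (-2.95 ± 0.50; edgeR adjusted p = 0.000124), 7.12 to 38.8 in iHep_Foxa1 (median 21.6; -2.90 ± 0.44; edgeR adjusted p = 2.51e-05) and 14.02 to 63.1 in iHep_Foxa3 (median 23.5; -2.52 ± 0.45; edgeR adjusted p = 9.4e-05). Fads1 was at 291 and 330 CPM in MEF and at 61.4, 26.7, 54.0 and 63.2 in iHep_Foxa2, 39.2 to 72.8 (median 58.3) in iHep_Foxa1 and 22.5 to 195 (median 85.6) in iHep_Foxa3. Elovl6, the elongase of palmitate, was at 120 and 133 CPM in MEF, at 19.2, 16.6, 17.9 and 35.5 in iHep_Foxa2, at 17.5 to 39.5 (median 25.2) in iHep_Foxa1 and at 17.4 to 101 (median 41.0) in iHep_Foxa3. No iHep library overlapped MEF for these genes. The early steps also fell in every group. Acly was at 420 and 527 CPM in MEF and 127 to 191 (median 146) in iHep_Foxa1, Fasn at 298 and 319 in MEF and 56.4, 114, 73.7 and 81.9 in iHep_Foxa2, and Acaca at 177 and 183 in MEF and 39.0 to 104 (median 65.1) in iHep_Foxa3. In iHep_Foxa1, iHep_Foxa2 and iHep_Foxa3 the log2 fold changes were -1.65, -1.79 and -1.27 for Acly, -1.43, -1.25 and -1.36 for Acaca, and -1.44, -1.92 and -0.89 for Fasn. In iHep_Foxa3 the calls of Fasn (-0.93 and -0.81) and Elovl6 (-1.39 and -1.22) were each lost without MEF replicate 1 or 2. Scd2, at 615 to 4222 CPM in iHep_Foxa3, was not called (-0.01 ± 0.45; edgeR adjusted p = 0.994).

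Against adult hepatocytes all 17 sterol genes were lower in each iHep group, and 7 of 8 fatty acid genes with them. In Hep against iHep_Foxa1, iHep_Foxa2 and iHep_Foxa3 the sterol medians were 3.36, 4.89 and 2.71 and the fatty acid medians 3.30, 3.67 and 2.56, while over all genes they were -0.42, -0.42 and -0.39. The background of calls was 24.8%, 25.4% and 26.7% higher and 35.3%, 35.2% and 35.3% lower. Scd2 was the fatty acid gene that went the other way in each, by -6.37 to -7.80. Srebf2 was lower in Hep than in iHep_Foxa1 and iHep_Foxa3 and was not called against iHep_Foxa2 (-0.33; edgeR adjusted p = 0.168). No Hep library overlapped an iHep library for any gene of either branch. The share of all genes without overlap is not given here, for this or any other comparison. In either direction, 60.1%, 60.6% and 61.9% of all genes were called in Hep against iHep_Foxa1, iHep_Foxa2 and iHep_Foxa3.

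The branches parted when each library was taken on its own. The median over a branch of log2 CPM relative to MEF lay between -2.99 and -2.46 for the sterol genes in the 4 iHep_Foxa2 libraries and between -2.21 and -1.46 for the fatty acid genes, so the sterol median was the lower in each, by 0.63 to 0.99. In iHep_Foxa1 replicates 1 to 3, of the low set, the sterol medians were -2.16, -1.42 and -2.38 and the fatty acid medians -1.62, -1.51 and -1.56. In replicates 4 to 6, of the high set, the sterol medians were -1.57, -0.73 and -0.93 and the fatty acid medians -2.17, -1.84 and -2.30. The fatty acid median was thus the lower in 3 of 3 high libraries, and the sterol median in 2 of 3 low ones. In iHep_Foxa3 the sterol median was -2.27 in replicate 1, the low library, and -1.76 to -0.15 in the others, and the fatty acid median was the lower in replicates 3 to 6.

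**Figure D4:**
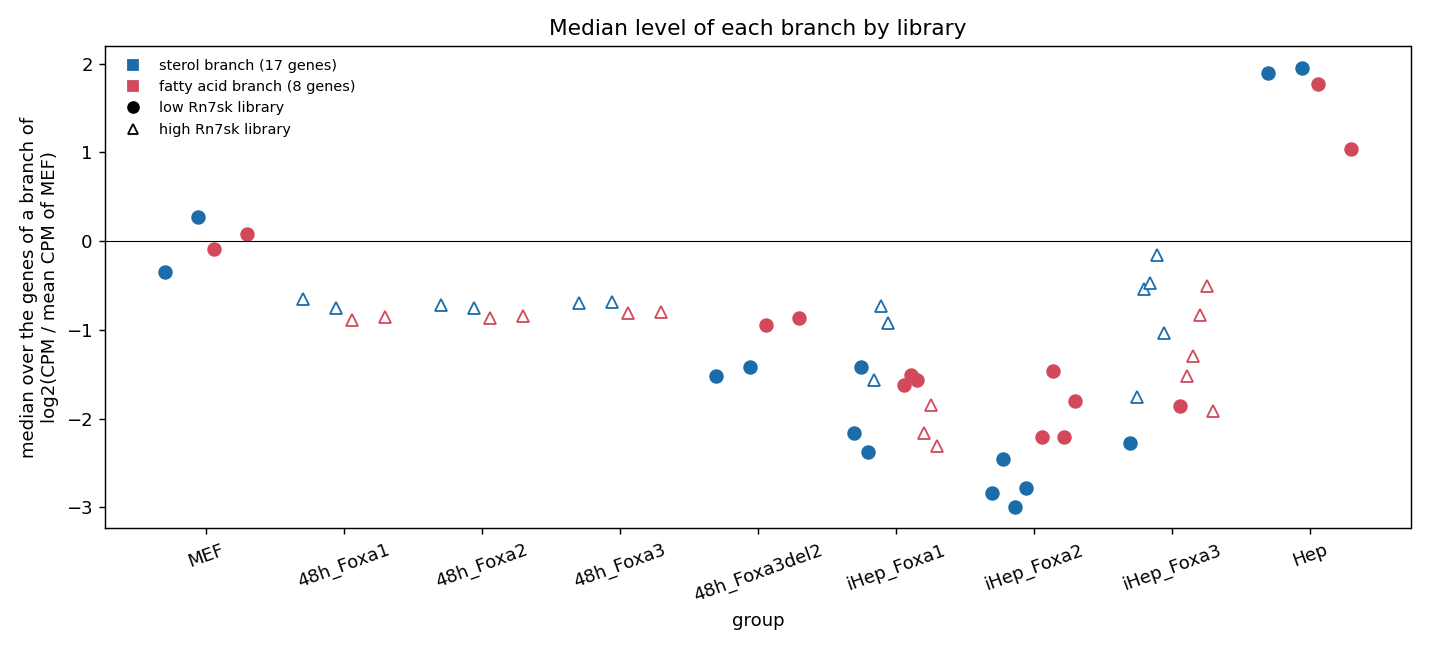
Median over the 17 sterol genes (blue) and the 8 fatty acid genes (red) of log2 CPM relative to the MEF mean, one point of each colour per library, by group; filled circles are libraries with low Rn7sk and open triangles those with high Rn7sk. Sterol medians of low iHep libraries lie between -2.99 and -1.42, and those of high iHep libraries between -1.76 and -0.15.

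Inside iHep_Foxa1 the sets were compared directly, 3 libraries against 3, in a fit with a term for each group and set. In the high set 9 of 17 sterol genes were higher and none lower (median 1.13), and no fatty acid gene was higher and 2 of 8 lower (median -0.21). Of all genes tested, 15.9% were called higher and 21.4% lower. Msmo1, a sterol methyl oxidase, was at 43.0, 84.8 and 26.2 CPM in the low libraries and 103, 226 and 183 in the high ones (1.73 ± 0.41; edgeR adjusted p = 0.00227). Fdps was at 26.9, 61.5 and 22.1 against 66.0, 148 and 119 CPM (1.59 ± 0.38; edgeR adjusted p = 0.00264). Ebp was at 41.2, 72.4 and 24.98 against 113, 165 and 118 CPM (1.52 ± 0.33; edgeR adjusted p = 0.00123). Acaca went the other way, with 86.2, 79.2 and 101 CPM in the low libraries and 40.1, 43.5 and 49.8 in the high ones (-1 ± 0.26; edgeR adjusted p = 0.00438), as did Fads2, with 32.7, 26.0 and 38.8 against 17.3, 15.2 and 7.12 (-1.30 ± 0.41; edgeR adjusted p = 0.0174). The libraries of the sets did not overlap for these 5 genes. Hmgcs1, Idi1 and Insig1 overlapped between the sets and were not called. In iHep_Foxa3, with 5 high libraries and 1 low one, 10 sterol genes were higher in the high set and none lower (median 1.55), and in the fatty acid branch 2 of 8 were higher and none lower, Scd2 (1.91) and Fads1 (2.24), with a median of 1.20 (7.86% of all genes higher and 10.2% lower). The fatty acid medians thus lay on opposite sides of 0 in the 2 groups, and that difference was not tested.

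With the low set alone, 16 of 17 sterol genes fell against MEF in each iHep group, all but Ebp, with medians of -1.86 in iHep_Foxa1, -2.78 in iHep_Foxa2 and -2.32 in the single low iHep_Foxa3 library, which was assumed to vary like the other groups. In the fatty acid branch 6, 8 and 7 of 8 fell (medians -1.53, -1.88 and -1.90). The background of genes called lower in these fits was 16.3%, 17.5% and 12%. Sc5d, which was not called against MEF in the pooled fit of iHep_Foxa1 or iHep_Foxa3, fell in both here (-1.51 ± 0.21 and -1.47 ± 0.31; edgeR adjusted p = 0.000648 and 0.00707). For iHep_Foxa3 the number of the 30 genes called rose from 16 in the pooled fit to 27 (1 higher, Scap, and 26 lower).

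Between 48 h and iHep the high set alone allows a comparison for Foxa1 and Foxa3, and there more fatty acid than sterol genes were called lower. In iHep_Foxa1 against 48h_Foxa1, 6 of 8 fatty acid genes fell and none rose (median -1.31), and 2 of 17 sterol genes fell and 1 rose (median -0.27). In iHep_Foxa3 against 48h_Foxa3, 3 of 8 fatty acid genes fell (median -0.67), and 1 sterol gene fell and 1 rose (median 0.08). The background of genes called lower was 29.8% and 28.4%, so that 3 of 8 is near it. Fasn was at 293 and 260 CPM in 48h_Foxa1 and at 96.9, 106 and 136 in the high iHep_Foxa1 libraries (-1.32 ± 0.29; edgeR adjusted p = 0.00229). Elovl6 was at 91.1 and 93.5 CPM and then at 17.5, 21.9 and 18.8 (-2.27 ± 0.48; edgeR adjusted p = 0.00174), and Acly at 268 and 268 and then at 127, 152 and 143 (-0.95 ± 0.19; edgeR adjusted p = 0.00133). Acly, Acaca and Fasn were the 3 that fell in Foxa3 cells too (-0.50, -0.72 and -0.74). The sterol gene that rose in both was Ebp, from 18.8 and 18.9 CPM in 48h_Foxa1 to 113, 165 and 118 (2.79 ± 0.29; edgeR adjusted p = 1.32e-05) and from 19.1 and 19.1 CPM in 48h_Foxa3 to between 58.1 and 118 in replicates 2 to 6 (2.36 ± 0.28; edgeR adjusted p = 2.19e-05). Mvk fell in both (-1.02 ± 0.24 and -0.72 ± 0.22). A difference between the branches was not tested as such, since genes are not replicates.

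**Figure D5:**
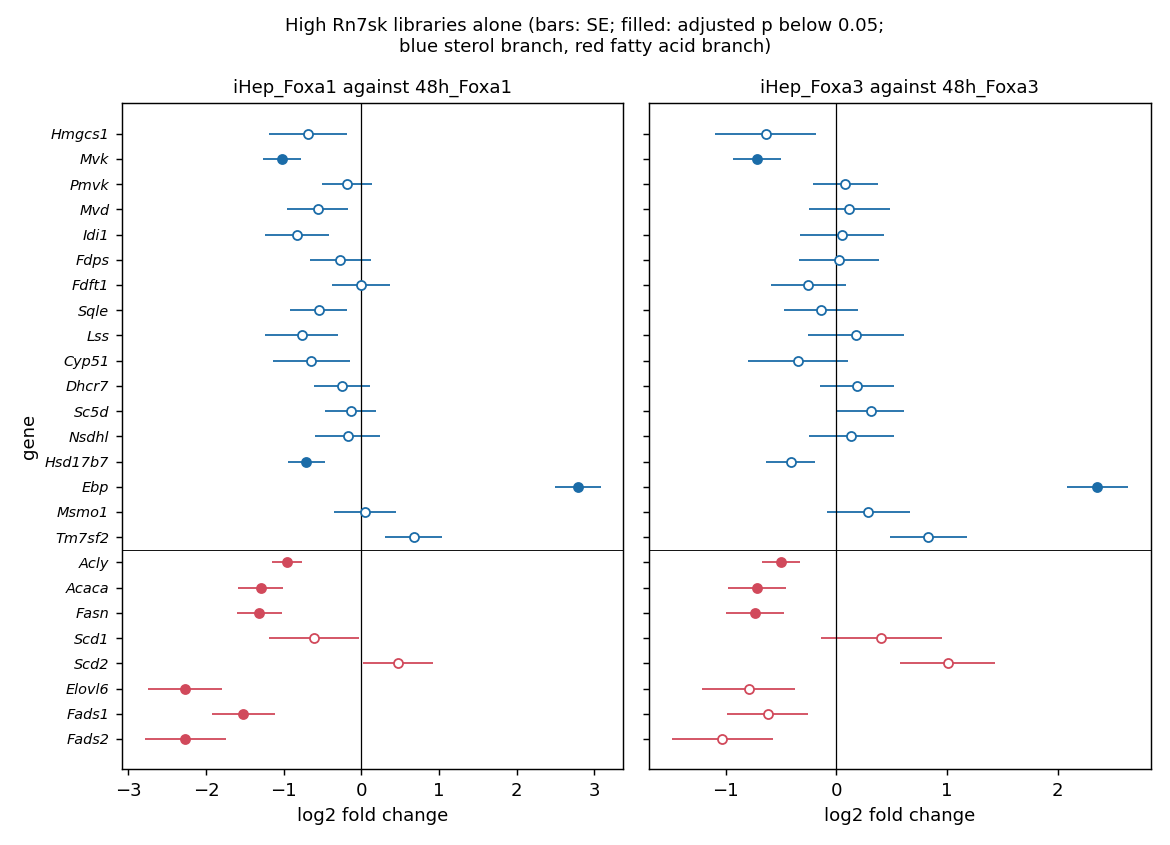
Log2 fold change with SE of each sterol gene (blue) and fatty acid gene (red) in iHep against 48 h cells of the same factor, high Rn7sk libraries alone; filled points have an adjusted p below 0.05. In Foxa1 cells 6 of 8 red points are filled on the left, and the filled blue point far to the right in both panels is Ebp (2.79 and 2.36).

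The pooled fits of the same step mix the sets. In iHep_Foxa1 against 48h_Foxa1, 5 of 8 fatty acid and 2 of 17 sterol genes fell and Ebp rose, with 21.2% of all genes called higher and 20.7% lower; without either 48h_Foxa1 library the total fell from 8 to 5. In iHep_Foxa3 against 48h_Foxa3, Mvk and Fasn fell and Ebp and Scap rose (19.6% higher and 21.0% lower over all genes), a total of 4 that was 1 without 48h_Foxa3 replicate 1, 2 without replicate 2 and 9 without iHep_Foxa3 replicate 5. In iHep_Foxa2 against 48h_Foxa2, 14 sterol and 5 fatty acid genes fell and none rose (20.4% higher and 19.7% lower over all genes), but there every iHep library was low and every 48 h library high. With the set as a term in the fit 12 of the 30 genes were lower and 1, Ebp, higher. The size of that term comes from the iHep groups that hold both sets, since neither group compared does. The share of all genes called in that fit is not given here, so this count does not set the 30 apart. For a change from 48 h to iHep that differed between factors, edgeR called none of the 30 in any of the 3 pairs of factors, and 0%, 0% and 0% of all genes. At an unadjusted p below 0.05 there were 8 for Foxa1 against Foxa2, 1 for Foxa1 against Foxa3 and 20 for Foxa2 against Foxa3, and DESeq2 called 0, 0 and 1.

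At 48 h 1 of the 30 genes was called against MEF with each wild-type factor. It was Pmvk, at 77.5 and 112 CPM in MEF and 24.5 to 27.8 CPM in the 6 libraries (-1.85 ± 0.34, -1.90 ± 0.34 and -1.79 ± 0.34; edgeR adjusted p = 0.00594, 0.00473 and 0.00642), against 3.12%, 3.28% and 2.98% of all genes called lower. That call was lost without MEF replicate 2 or without either 48 h library of the factor (-1.43 to -1.89). Each of those fits leaves 1 library in a group, and fewer of all genes were called in every one. An unadjusted p below 0.05 was found for 8, 9 and 8 of the 30, and the DESeq2 calls numbered 3, 3 and 2. The sterol medians were -0.68, -0.76 and -0.70 and the fatty acid medians -0.88, -0.85 and -0.81. When only the 2 groups compared entered the fit, 18, 18 and 17 of the 30 were lower, of which 7 each were sterol genes and 7 each fatty acid genes. The share of all genes called lower in that fit is not given here, so these counts do not set the 30 apart from other genes. In that fit the spread comes from the 2 pairs compared, and these were not alike. No sterol or fatty acid gene differed by more than 1.16-fold between the 2 libraries of 48h_Foxa1, 48h_Foxa2 or 48h_Foxa3. Between the 2 MEF libraries the sterol genes differed by a median of 1.54-fold and up to 2.29-fold, and the fatty acid genes by a median of 1.12-fold. MEF lies in the low set and these 48 h groups in the high set. With the set as a term, whose size comes from the iHep groups that hold both sets, the sterol medians were -1.85, -1.87 and -1.84 with 9, 11 and 10 sterol genes lower, and the fatty acid medians -0.81, -0.85 and -0.75 with none called (3.21%, 3.92% and 3.66% of all genes called). The order of the branch medians thus turned with the fit. The 1 comparison with MEF at 48 h inside a single set was that of 48h_Foxa3del2, where 11 of the 30 were lower and none higher (15.8% of all genes called in either direction). There 16 had an unadjusted p below 0.05, and DESeq2 called 13. The sets are defined by Rn7sk, and Rps29 still differed, at 372 and 373 CPM in 48h_Foxa3del2 and 35.4 and 34.8 in MEF.

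Between factors at 48 h none of the 30 genes was called by edgeR or DESeq2, and none had an unadjusted p below 0.05. The largest log2 difference among the 30 was 0.13 for Foxa1 against Foxa2, 0.20 for Foxa1 against Foxa3 and 0.16 for Foxa2 against Foxa3. In the same order edgeR called 0.00606%, 0.0121% and 0.0121% of all genes, so the lack of calls does not set the 30 apart.

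The mutant and wild-type Foxa3 groups at 48 h differed in the sterol branch in a direction that turned with the fit, and none of the 30 genes passed the test in the pooled one. None of the 30 was called in 48h_Foxa3del2 against 48h_Foxa3 (2.98% of all genes were called), 3 had an unadjusted p below 0.05 (Srebf2, Dhcr7 and Sqle) and DESeq2 called 1. The sterol median was -0.65 and the fatty acid median 0.02. Dhcr7 was at 13.8 and 14.7 CPM in the mutant and 40.0 and 42.6 in the wild type, Hmgcs1 at 279 and 270 against 574 and 532, and Fasn at 289 and 318 against 290 and 291. With the 2 groups alone in the fit, 15 sterol genes were lower and 1 higher, against 1 lower and none higher in the fatty acid branch. The share of all genes called in that fit is not given here either. With the set as a term in the fit the sterol median was 0.47 and 2 sterol genes, Ebp (1.72) and Nsdhl, a sterol dehydrogenase (1.59), were higher and none lower (23.1% of all genes called). The mutant libraries are in the low set and the wild-type ones in the high set. They also held less of the 6 fibroblast markers (7111 to 8568 CPM against 23552 to 24708). The part of either in the sterol difference cannot be told apart from the mutation.

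Between the iHep groups the pooled fit and the fit within the low set differed. In the pooled fit iHep_Foxa1 was above iHep_Foxa2 in 10 sterol genes, Srebf2 and no fatty acid gene (7.10% of all genes higher), and iHep_Foxa2 was below iHep_Foxa3 in 15 sterol, 4 regulator and 4 fatty acid genes (15.1% lower). iHep_Foxa1 was below iHep_Foxa3 in Lss and Scap (3.92% lower). With the low set alone 0 of the 30 were called for Foxa1 against Foxa2, with a sterol median of 0.71. In that fit 0.0183% of all genes were called higher and 0.0061% lower, so the 0 does not set the 30 apart. At that setting iHep_Foxa3 has 1 library. Against it the sterol median was 0.33 for Foxa1 and -0.41 for Foxa2, and Scap had log2 differences of -0.94 and -1.07. With the high set alone, 3 libraries against 5, iHep_Foxa1 was below iHep_Foxa3 in Acly (-0.53 ± 0.16; edgeR adjusted p = 0.0426), Elovl6 (-1.53 ± 0.41; edgeR adjusted p = 0.0287) and Scap (-0.38 ± 0.10; edgeR adjusted p = 0.0316), with a fatty acid median of -0.78 and a sterol median of -0.30 (8.64% of all genes lower). The first total of 11 was 5 without iHep_Foxa1 replicate 5, 7 without replicate 6, 6, 4 and 2 without iHep_Foxa2 replicates 1, 3 and 4, and the second total of 2 was 11 without iHep_Foxa3 replicate 1, 5 without iHep_Foxa1 replicate 5, and 1 without any one of iHep_Foxa1 replicates 1, 3 and 4 and iHep_Foxa3 replicates 3, 4 and 5. Immediate early and stress genes (5 genes) summed to 2756 to 5851 CPM in iHep_Foxa2, 728 to 3875 in iHep_Foxa1 and 583 to 2512 in iHep_Foxa3, and their part was not tested.

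Libraries of 1 iHep group differed widely. From the lowest to the highest library the median sterol gene spanned 3.50-fold in iHep_Foxa1, 1.67-fold in iHep_Foxa2 and 4.87-fold in iHep_Foxa3, and the median fatty acid gene 2.12-fold, 1.84-fold and 4.77-fold. In iHep_Foxa3, replicate 5 was the highest library for 15 of 17 sterol genes, 4 of 5 regulators and 8 of 8 fatty acid genes. In iHep_Foxa1, replicate 3 was the lowest for 14 of 17 sterol genes and for no fatty acid gene. Summed on the FPKM scale, the sterol genes came to 3157 and 3252 in Hep, 1065 and 1759 in MEF, 199.95 to 266 in iHep_Foxa2, 283 to 812 in iHep_Foxa1 and 297 to 1296 in iHep_Foxa3.

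Of 20 further genes of the pathway that are not members, 17 rose and 1 fell in Hep against MEF. Of all genes, 24.3% were called higher and 32.6% lower there. In iHep_Foxa1, iHep_Foxa2 and iHep_Foxa3 against MEF, 6, 5 and 8 rose and 6, 6 and 4 fell, so the calls went both ways. In these comparisons 15.3% to 22.9% of all genes were called higher and 15.5% to 23.7% lower. Whether the list differed from all genes or from the 30 was not tested. It mixes enzymes of synthesis with regulators and an exporter, so its net count has no single reading. Acat2, which makes acetoacetyl-CoA for the sterol branch, fell in each iHep group (-1.55, -1.996 and -1.29), as did Acss2, which makes acetyl-CoA from acetate (-1.10, -1.17 and -0.96).

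The genes of this list that rose in each iHep group were Insig2, Nr1h3, Abcg1 and Mlxipl. Insig2, the second SREBP retention protein, was at 33.5 and 33.6 CPM in MEF and 91.0 to 214, 73.2 to 144 and 146 to 198 in iHep_Foxa1, iHep_Foxa2 and iHep_Foxa3 (2.01, 1.61 and 2.33; edgeR adjusted p = 1.67e-05, 0.000295 and 2.58e-06). Insig1 and Insig2 thus went in opposite directions. Nr1h3, the oxysterol receptor LXR alpha, was at 1.05 and 2.68 CPM in MEF and at 6.71 to 27.98 over all iHep libraries (2.99, 3.15 and 3.32). Abcg1, a sterol exporter, was at 0.575 and 1.24 CPM in MEF and 2.90 to 31.6 in iHep (4.12, 3.68 and 4.69). Hep held 214 and 335 CPM of Insig2 and 212 and 219 of Nr1h3. Mlxipl, a glucose-responsive lipogenic factor of liver, was at 310 and 307 CPM in Hep, at 0 in both MEF libraries and at 0.0630 to 7.26 in iHep. Thrsp, a lipogenic gene of liver, was at 1138 and 386 CPM in Hep and at 0.335 or less in every iHep library.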

How the data were processed

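RNA from 28 libraries was prepared with the Illumina Truseq Stranded mRNA kit, per the labels' protocols. Reads were aligned with BWA 0.7.12 to mm9, per the submitters' processing notes. For the quantifier and its strand setting, the name is not given in the sources used here. The authors deposited, per the file headers, 1 table per library of 30710 RefSeq transcripts with the estimated count, the FPKM and the fraction of transcripts of each. The fraction was not used. The groups, the library sets, the 30 members and the lists of related and marker genes were taken or chosen with earlier results of these data known.

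Estimated counts (at most 7 non-whole values per library) were summed per gene symbol and rounded. Of the transcripts, 30186 were named from RefSeq, 185 from GENCODE, and 339 had no name. The unnamed ones held 0.609% to 3.21% of counts and stayed out of the tests. Counts were tested in R 4.3.3 with edgeR 4.0.16 (TMM, filterByExpr, robust quasi-likelihood fit, 1 term per group, 19 residual degrees of freedom, Benjamini-Hochberg adjustment over all 16499 genes, threshold 0.05). All 28 libraries entered the fit, so the groups share 1 estimate of spread. Values in every library are given for up to 4 called members of each branch with the largest change in Hep and in each iHep group against MEF, and for Srebf1, Srebf2 and Insig1. Any of the 30 members, and any of the 20 related genes that was called, could be named. Some related genes are not reported here by name. Intervals are SE. Alternatives were DESeq2 1.42.0, its size factors, tests without the low-count filter, the top transcript in place of the gene sum, the replicate number as a block, the compared groups alone, and each replicate left out. The library set as a term and each set alone were used as well, since the sets were known from earlier results. The fit was tested on simulated data. Replicate numbers did not pair the libraries: deviations of same-numbered libraries had a median correlation of 0.002 over 80 pairs.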

Additional observations from a re-analysis of the deposited data

Results flagged for a closer look

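In groups of 4 to 6 libraries, 4 of 90 gene and group combinations had 1 library far from the rest by Dixon's ratio, which chance gives in about 1 of 20. Elovl6 was at 35.5 CPM in iHep_Foxa2 replicate 4, where the next highest library had 19.2. Hsd17b7, a sterol ketoreductase, was at 88.4 CPM in iHep_Foxa1 replicate 5, where the next highest had 51.0. Mvk was at 21.7 CPM in the same library, where the next highest had 14.9. In iHep_Foxa2 replicate 1, Mvk was the lowest at 8.54 CPM, where the next lowest library had 11.2.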

How the results depend on the processing

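Of 3781 values of called genes over the alternatives, 3518 kept direction and side of the threshold, 259 lost the call and 4 reversed. The 4 were differences between iHep_Foxa2 and iHep_Foxa3 within the low set alone, for Mvk (0.12), Hsd17b7 (0.10), Scd2 (0.31) and Elovl6 (0.38). With iHep_Foxa3 against MEF, the 16 called were 27 in the low set alone. For iHep_Foxa1 against 48h_Foxa1, the 8 called were 18 with the replicate block, where 12 of 17 sterol genes and 5 of 8 fatty acid genes were lower. For iHep_Foxa2 against 48h_Foxa2, the 22 were 13 with the set as a term. For iHep_Foxa3 against 48h_Foxa3, the 4 were 7 with DESeq2 size factors and 7 by DESeq2, 8 with the replicate block and 2 with the compared groups alone. For 48h_Foxa1, 48h_Foxa2 and 48h_Foxa3 against MEF, the 1 called was 9, 11 and 10 with the set as a term, 18, 18 and 17 with the compared groups alone, 3, 3 and 2 by DESeq2, and 2 for Foxa1 with the replicate block. For 48h_Foxa3del2 against 48h_Foxa3, the 0 were 1, lower, with the replicate block, 2, both higher, with the set as a term, 22, of which 21 lower, with the compared groups alone and 1 by DESeq2. For iHep_Foxa1 against iHep_Foxa2, the 11 were 0 with the replicate block, the set as a term, the compared groups alone or the low set alone, and 18 by DESeq2. For iHep_Foxa1 against iHep_Foxa3, the 2 were 1 with the set as a term and 0 with the compared groups or the low set alone. For iHep_Foxa2 against iHep_Foxa3, the 23 were 4 with the set as a term and 1 in the low set alone. For the change to iHep in Foxa2 minus Foxa3 cells, the 0 were 1 by DESeq2. The cause was not tested.

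Leaving out 1 replicate at a time gave 15 to 19 calls for Hep against MEF, 12 to 24, 25 to 27 and 8 to 18 for iHep_Foxa1, iHep_Foxa2 and iHep_Foxa3 against MEF, 30 to 30, 29 to 29 and 29 to 30 for Hep against the same groups, 5 to 9, 19 to 22 and 1 to 9 for iHep against 48 h, 0 to 1 for each 48 h group against MEF and 0 to 0 for the mutant. It gave 2 to 15, 1 to 11 and 21 to 26 for the iHep pairs and 0 to 0 for the changes between factors. Where a group of 2 was left with 1 library, that library was assumed to vary like the others. For Hep and for each 48 h group against MEF, every such fit also called fewer of all genes. Loss of calls was therefore not confined to the 30, and whether it was larger for them was not tested. DESeq2 size factors moved the median of all genes by 0.16 in Hep against MEF and by 0.21 to 0.24 in Hep against iHep, and by under 0.1 elsewhere.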
